A study of Homo sapiens with 15 samples.

Results

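The 3 genomic loci described here were examined because each holds one of the strongest FOXA1 peaks that parental 22Rv1 cells showed with vehicle and lacked with the stereoprobe WX-02-23. The windows were 500 kb on chromosome 3 from 30400000 to 30900000, named for TGFBR2, 500 kb on chromosome 16 from 64800000 to 65300000, named for CDH11, and 400 kb on chromosome 2 from 101500000 to 101900000, named for TBC1D8 (build hg19). They held 137 of the 249079 peaks in the 12 deposited lists. Peaks that overlapped by at least 1 bp across lists were merged into sites, which gave 35 of the 69194 sites of the genome: 13 at TGFBR2, 6 at CDH11 and 16 at TBC1D8.

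FOXA1 chromatin immunoprecipitation with sequencing (ChIP-seq) was done in 22Rv1, an established human prostate carcinoma line, with 1 library per group. Parental cells received 0.1% DMSO, 20 µM WX-02-23, 20 µM WX-02-43 or PladB for 3 h, or small interfering RNA, either targeting FOXA1 (siFOXA1) or control (siControl), at a dose and time that the labels do not give. The engineered cells overexpress Y36C-PHF5A and carry a doxycycline-inducible FOXA1, either wild type (the WT line) or with the C258A change (the C258A line). Each line has an uninduced DMSO library and, after induction with doxycycline, a DMSO and a 20 µM WX-02-23 library. PladB is given as 100 nM in the label of the parental sample and as 10 nM for parental cells in the shared protocol. Both engineered lines also have their own FOXA1 gene, and the labels name an antibody against FOXA1 and no tag, so endogenous and induced protein cannot be told apart. The labels do not say whether the lines are clones.

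FOXA1 is a forkhead transcription factor that can bind its sites in closed chromatin and open them for other factors, and in prostate cells it works beside the androgen receptor at enhancers. PladB (pladienolide B) inhibits the splicing complex that contains PHF5A, and the Y36C change in PHF5A is known for resistance to it. TGFBR2 is the type II receptor kinase that binds TGF-β ligands and starts SMAD signalling. CDH11 is a cadherin, a calcium-dependent adhesion protein best known from osteoblasts and mesenchymal cells. TBC1D8 belongs to the TBC domain family, many of whose members act on Rab GTPases in membrane traffic. In the order of protein-coding genes in RefSeq (GRCh38.p14), TGFBR2 is followed by GADL1, CDH11 lies between CDH8 and CDH5, and TBC1D8 lies between RPL31 and CNOT11. No annotation of the build of the peaks was used here, so whether a peak is intergenic, intronic or at a promoter was not analysed here, and the gene names are names of windows.

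A founding peak is the DMSO peak that led to the choice of a window. Founding peaks were chosen by their calls: present in the parental DMSO, WX-02-43, PladB and siControl lists and in the WX-02-23 list of the C258A line, and missing from the WX-02-23 lists of parental and WT cells. Of the 30557 DMSO peaks, 365 (1.19%) met this rule, and the 3 founding peaks are those with the highest DMSO score. The members were thus selected on these calls and on the DMSO score, which are a description of the choice and not a finding. The score is the authors' own value per peak. Its definition is not given in the sources used here, no listed score was below 90, and scores are set only within a list. An uncalled site may thus hold signal under that floor. The lowest-scoring of the 3 had a DMSO score of 1909, and the next candidate, on chromosome 7 from 107668128 to 107669312, had 1601.

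With 1 library per group, no difference below has a replicate check and no test was made. Read totals were not analysed here, so the depth behind each list is unknown. The lists held between 3018 (siFOXA1) and 34119 (siControl) peaks, with 17217 for parental WX-02-23 and 18228 for WX-02-43. The induced C258A lists held 13299 (DMSO) and 20609 (WX-02-23). List length differs between the groups compared, and its part in the calls was not tested beyond the reduced lists given below.

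At the TGFBR2 locus the founding peak lay on chromosome 3 from 30559389 to 30560785 (1397 bp). It scored 2354 with DMSO, 2299.5 with siControl, 2824 with PladB and 909.7 with WX-02-43. These values put it at rank 530 of 30557, 415 of 34119, 281 of 33121 and 1099 of 18228 in the respective lists. It was the highest-scoring DMSO peak of the genome that had no WX-02-23 peak: all 529 peaks above it were called with WX-02-23. In WT cells it scored 296 without doxycycline and 213 with it, and in C258A cells it scored 923 uninduced, 136 induced with DMSO and 134 induced with WX-02-23. It was therefore a strong peak of the 4 parental lists that called it and of the uninduced C258A list. The induced lists held it lower in their order, at rank 14096 of 31735 in WT cells with DMSO and 13863 of 20609 in C258A cells with WX-02-23. No peak was listed there in parental or WT cells with WX-02-23 or with siFOXA1.

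At the CDH11 locus the founding peak lay on chromosome 16 from 65030159 to 65031288 (1130 bp). It scored 2223 with DMSO, 1899.5 with siControl, 2154 with PladB and 969 with WX-02-43. Its DMSO rank was 618, and 2 of the DMSO peaks at or above its score had no WX-02-23 peak, of which it was one and the TGFBR2 peak the other. In WT cells it scored 271 without doxycycline and 474 with it. The C258A lists gave 322 uninduced, 278 induced with DMSO and 247 induced with WX-02-23. Among the lists that called it, its place by score ran from the top 1.78% with PladB to the top 33.6% in C258A cells with WX-02-23.

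At the TBC1D8 locus the founding peak lay on chromosome 2 from 101726482 to 101727680 (1199 bp). It scored 1909 with DMSO, 1746 with siControl, 1798 with PladB and 463 with WX-02-43. Its DMSO rank was 864, and 4 DMSO peaks at or above its score had no WX-02-23 peak. With WX-02-43 it ranked 3392 of 18228, in the top 18.6% of that list, against the top 2.83% with DMSO. In WT cells it scored 239 without doxycycline and 354 with it, ranks 2476 of 8575 and 7541 of 31735. In C258A cells it scored 1093 without doxycycline, where it ranked 645 of 12752, against 124 with doxycycline and DMSO and 141 with WX-02-23, ranks 9447 of 13299 and 13202 of 20609. The induced C258A lists thus held it among their weaker peaks.

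**Figure D1:**
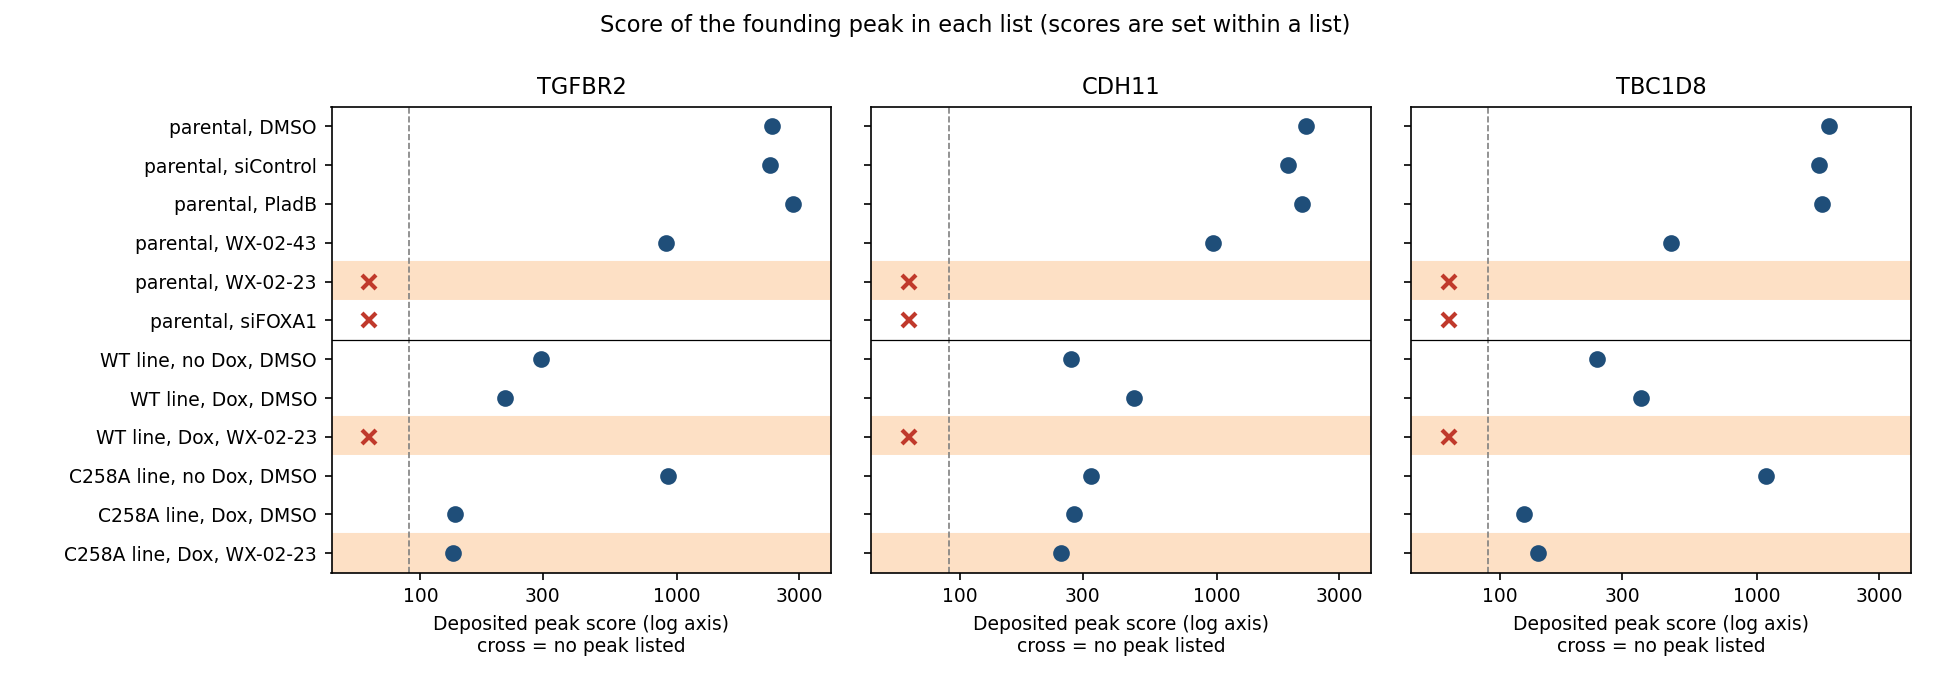
Score of the founding peak of each locus (panels) in each of the 12 lists (rows) on a log axis; a cross marks a list with no peak there, the dashed line is the lowest listed score, 90, and shaded rows are WX-02-23 libraries. Every panel has crosses for siFOXA1 and for WX-02-23 in parental and WT cells, and scores of 1746 or more in parental DMSO, siControl and PladB.

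The plot of founding scores shows what the 3 peaks share. Each was listed in 9 of the 12 lists, the exceptions being siFOXA1 and the WX-02-23 libraries of parental and WT cells. The rule did not use the uninduced lists, the DMSO lists of the engineered lines or siFOXA1. The same calls in all 12 lists were found for 82 of the 365 peaks that met the rule (22.5%), or 0.268% of all 30557 DMSO peaks, a share that the rule itself keeps low. Over all DMSO peaks, 26.3% were called in WT cells without doxycycline, 36.6% in WT cells with doxycycline and DMSO, 38.1% in C258A cells without doxycycline, 17.3% in C258A cells with doxycycline and DMSO, and 3.92% with siFOXA1. The founding peaks were chosen for high DMSO scores and for a call in the C258A WX-02-23 list. These shares cover peaks of every score, and shares for peaks of like score were not analysed here. Among the DMSO peaks in the top 10% by score, 75 of 3055 (2.45%) had no WX-02-23 peak. Strong peaks without a WX-02-23 call were thus uncommon in the parental libraries, and the 3 founding peaks are 3 of these 75.

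The founding peaks were narrower in the engineered lists, as were peaks in general: the median width of whole lists was 443 to 634 bp there and 641 to 773 bp in the parental lists other than siFOXA1. At TGFBR2 the width was 1397 bp in parental DMSO, 816 bp with WX-02-43 and between 387 and 708 bp in the engineered lists. At CDH11 the engineered lists gave 473 to 732 bp and at TBC1D8 502 to 793 bp. Centres moved little: across all lists that called them, the centres lay within 0.112 kb of the DMSO centre at each locus. When sharing required a reciprocal overlap of 50%, the C258A WX-02-23 call ended at all 3 loci, and with all lists other than siFOXA1 reduced to their 8575 highest-scoring peaks it ended at TGFBR2 and TBC1D8 and was kept at CDH11. Other engineered calls ended under the same settings. Reciprocal overlap ended the uninduced WT call at all 3 loci, the uninduced C258A call at TGFBR2 and CDH11, and the induced C258A call with DMSO at TGFBR2 and TBC1D8. Reduced lists ended the induced WT call with DMSO at TGFBR2 and the induced C258A call with DMSO at TBC1D8. At that length both induced WT lists lacked the TGFBR2 peak, and the uninduced WT list kept it. In induced C258A cells the reduced DMSO list kept the TGFBR2 peak and the reduced WX-02-23 list did not.

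The neighbourhood of the founding peaks was next described, since the rule did not choose the other sites of the windows. Counted from centre to centre, the CDH11 peak had no other DMSO peak within 100 kb, the TGFBR2 peak had 3 and the TBC1D8 peak had 7. The median over all DMSO peaks was 2. As many as 7 neighbours or more were found for 6.66% of DMSO peaks, and none for 11.0%. The 3 loci therefore differ in setting: an isolated peak at CDH11, a number of neighbours near the median at TGFBR2 and a dense cluster at TBC1D8.

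**Figure D2:**
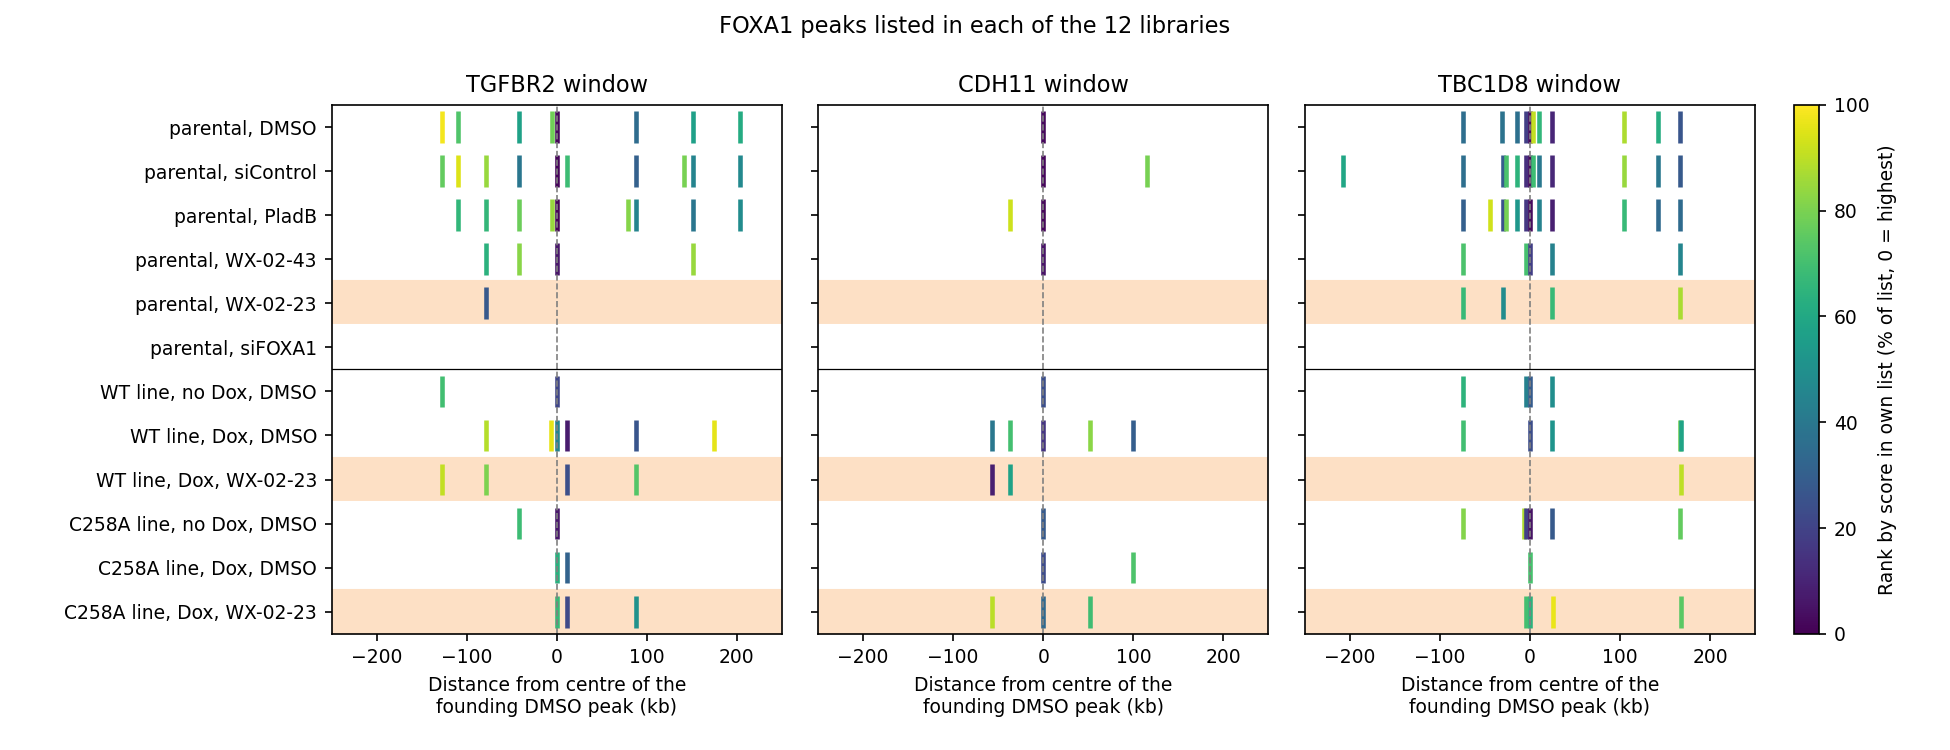
Position of every listed peak in the 3 windows (panels), by list (rows), as distance in kb from the centre of the founding DMSO peak; colour gives the rank by score within the own list in percent, with dark bars for the strongest peaks, and shaded rows are WX-02-23 libraries. With parental WX-02-23 the lists hold 1 peak at TGFBR2, 0 at CDH11 and 4 at TBC1D8, against 8, 1 and 11 with DMSO. The rule fixed the founding peak of each window as listed with DMSO and not with WX-02-23, and at CDH11 it is the only DMSO peak. Over the whole DMSO list, 47.2% of peaks were called with parental WX-02-23.

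The map of listed peaks gives the totals per library. In parental cells the 3 windows held 20 peaks with DMSO, 25 with siControl, 23 with PladB and 0 with siFOXA1, while WX-02-43 gave 10 and WX-02-23 gave 5. In WT cells they held 7 uninduced, 16 induced with DMSO and 7 induced with WX-02-23. In C258A cells the corresponding counts were 9, 5 and 10. The whole parental lists held 30557, 34119, 33121, 3018, 18228 and 17217 peaks, in the order given above. The whole WT lists held 8575, 31735 and 25849, and the whole C258A lists 12752, 13299 and 20609. The rule placed the founding peak of each window in the counts for parental DMSO, siControl, PladB and WX-02-43 and for C258A WX-02-23. The rule also kept that peak out of the WX-02-23 counts of parental and WT cells. Of the 35 sites, 15 were called in parental lists alone, 6 in engineered lists alone and 14 in both, and 7 were called in a single list. The same split over all sites of the genome was not analysed here.

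At TGFBR2 none of the 7 neighbouring DMSO peaks was called with WX-02-23, which allows a share of up to 42.9%, against 47.2% of all DMSO peaks. With WX-02-43, 2 of 7 were called (28.6%, Wilson 95% interval 8.22 to 64.1%), against 55.5% of all. PladB kept 6 of 7 (85.7%, 48.7 to 97.4%), against 88.2% of all, and siControl also 6 of 7, against 88.1%. The siFOXA1 list held none of them, against 3.92% of all DMSO peaks. These intervals cover counting error only and treat the peaks as independent.

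Most of these neighbours were weak. Their DMSO scores ran from 92.1 to 342 with a median of 178, and the median over all DMSO peaks without a WX-02-23 call was 153, against 457 for those with one. The strongest neighbour, on chromosome 3 from 30647241 to 30648327 and 87.7 kb from the founding peak, scored 342 with DMSO, 389.8 with siControl and 257 with PladB and was listed with neither stereoprobe in parental cells. In WT cells it scored 329 with DMSO and 122 with WX-02-23, and in C258A cells it was listed with WX-02-23 alone, at 175. So this site was called with WX-02-23 in both engineered lines and not in the parental one. The sites from 30517717 to 30518764 (DMSO score 194) and from 30710733 to 30711486 (DMSO score 197) were the 2 that WX-02-43 kept, with scores of 113 and 109.6, while WX-02-23 kept neither. The first also scored 296 with siControl, 128 with PladB and 135 in uninduced C258A cells. The second scored 253 with siControl and 301 with PladB and was in no engineered list.

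The nearest site to the TGFBR2 founding peak, 5.85 kb away from 30553858 to 30554620, was weak wherever it was called: 127 with DMSO, 114 with PladB and 94.3 in WT cells with doxycycline and DMSO. On the other side, 11.2 kb away, a site from 30570862 to 30571683 was not listed in parental DMSO and scored 151 with siControl. It was one of the stronger peaks of the induced lists, with 714 in WT cells with DMSO (rank 2465 of 31735), 308 in WT cells with WX-02-23, 229 in C258A cells with DMSO and 335 in C258A cells with WX-02-23. Neither uninduced list held it. A site that both induced lines called with and without WX-02-23 thus stood 11.2 kb from the founding peak, which WT cells called with DMSO and not with WX-02-23 at the deposited list lengths and with neither in lists reduced to 8575 peaks.

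The only site of the TGFBR2 window called in parental cells with WX-02-23 lay from 30481604 to 30482511, 78.0 kb from the founding centre. It scored 346 with WX-02-23, rank 4753 of 17217. Parental DMSO did not list it, and it was the 1 of 5 parental WX-02-23 peaks in the windows that lacked a DMSO peak, against 15.5% of that whole list; siControl (113), PladB (159) and WX-02-43 (154) did, as did induced WT cells (104 with DMSO, 112 with WX-02-23). Among the lists that called it, its rank lay in the upper 27.6% with parental WX-02-23 and between 64.0% and 88.7% elsewhere. Measured from edge to edge, it was the nearest parental WX-02-23 peak to the founding peak, 76.9 kb away. The remaining 6 sites of the window had scores of 242 or less: 4 were called in parental lists alone, 1 in WT cells with DMSO alone (94.5), and 1, from 30432451 to 30433090, scored 92.1 with DMSO, 131 with siControl, 121 in uninduced WT cells and 99.2 in WT cells with WX-02-23.

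At CDH11 the founding peak was the only DMSO peak of the window, so no share of neighbours can be given. Parental cells listed 2 other peaks there, 1 with PladB (101, from 64993517 to 64994209) and 1 with siControl (123, from 65145119 to 65145806). The nearest parental WX-02-23 peak lay outside the window, 360.0 kb away, from 65391007 to 65391493 with a score of 355. Of the 16135 DMSO peaks without a WX-02-23 call, 2.5% were as far from one. For the TGFBR2 and TBC1D8 peaks the corresponding distances were 76.9 and 24.2 kb, which 35.1% and 67.4% of those peaks reached, and the median was 47.3 kb.

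With doxycycline, the engineered lists held peaks in the CDH11 window that the parental lists lacked. Sites from 64973682 to 64974309, from 65082301 to 65082881 and from 65130136 to 65130798 were called in engineered lists alone and in neither uninduced list. The first scored 235 in WT cells with DMSO, 584 in WT cells with WX-02-23 (rank 2251 of 25849) and 101 in C258A cells with WX-02-23. The second scored 112 in WT cells with DMSO and 131 in C258A cells with WX-02-23, and the third 300.3 in WT and 122 in C258A cells, both with DMSO. The site from 64993517 to 64994209, 36.9 kb from the founding peak, scored 135 (DMSO) and 152 (WX-02-23) in induced WT cells. Their WX-02-23 list thus lacked the founding peak while the 2 sites at lower coordinates were called.

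At TBC1D8, 4 of the 10 neighbouring DMSO peaks were called with WX-02-23 (40.0%, Wilson 95% interval 16.8 to 68.7%) and 4 of 10 with WX-02-43, with 3 peaks common to both. These shares lie beside 47.2% and 55.5% of all DMSO peaks. PladB kept 9 of 10 (59.6 to 98.2%) and siControl kept all 10 (72.2 to 100.0%). With siFOXA1 none of 10 was called, which allows a share of up to 30.0%, against 3.92% of all DMSO peaks. Over all DMSO peaks, PladB kept 88.2% and siControl 88.1%, and each of these 4 whole-list shares lies within the interval of the TBC1D8 neighbours. The number kept was equal between the stereoprobes at the deposited list lengths. With lists reduced to 8575 peaks, 3 neighbours were left: WX-02-23 kept 0 of them, and WX-02-43, PladB and siControl kept 2 each. The 2 kept with WX-02-43 lay close to the cut, at ranks 8081 and 8267 of that list. The WX-02-23 list held the same 2 peaks below the cut, at ranks 11585 and 15038. The third, with a DMSO score of 622, lay below the cut with WX-02-43, at rank 12888.

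**Figure D3:**
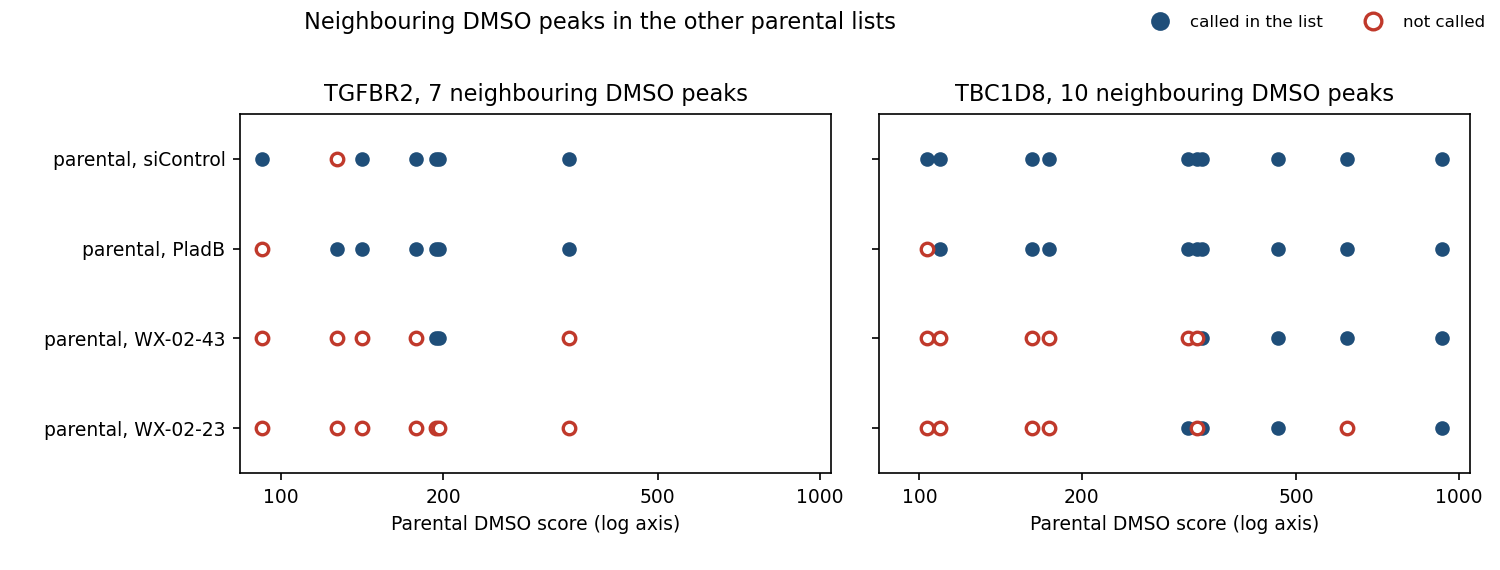
DMSO score (log axis) of the neighbouring DMSO peaks at TGFBR2 and TBC1D8, with each peak filled where the parental list in that row called it and open where it did not. At TGFBR2 all 7 points are open for WX-02-23, and at TBC1D8 the peak at 622 is open for WX-02-23 and filled for WX-02-43. Over the whole DMSO list, 47.2% of peaks were called with WX-02-23 and 55.5% with WX-02-43.

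The plot of neighbouring peaks shows where the stereoprobes parted. The peak from 101722871 to 101723728, 3.78 kb from the founding peak, scored 622 with DMSO, 774 with siControl, 697 with PladB and 136 with WX-02-43, and was not listed with WX-02-23. It is, with the founding peak, one of the 2 sites of this window called in those 4 lists and not with WX-02-23. The set of such sites held 4779 of all DMSO peaks (15.6%). It was also called in WT cells without doxycycline (177), and in C258A cells both uninduced (442) and with WX-02-23 (129), but in neither induced DMSO list. In the other direction, the peak from 101696360 to 101697441, 30.2 kb away, scored 314 with DMSO, 415 with siControl, 481 with PladB and 205 with WX-02-23 and was not listed with WX-02-43. No engineered list held it.

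The strongest neighbour of the TBC1D8 peak was kept by both stereoprobes. It lay 25.2 kb away, from 101751663 to 101752921, and scored 933 with DMSO, 897 with siControl, 1039.8 with PladB, 221 with WX-02-43 and 143 with WX-02-23. It was called in 9 lists, like the founding peak, but not in the same ones: it was missing in WT cells with WX-02-23, in C258A cells with DMSO and with siFOXA1. Its remaining scores were 161 and 186 in WT cells without and with doxycycline, and 324 without doxycycline and 93.0 with WX-02-23 in C258A cells. Also kept by both were the peaks from 101652856 to 101653628 (DMSO score 334, WX-02-43 134, WX-02-23 143) and from 101893372 to 101894247 (DMSO score 462, siControl 427, PladB 350.0, WX-02-43 217, WX-02-23 106). The latter was also listed in induced WT cells with DMSO (119.9) and in uninduced C258A cells (121).

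The 6 DMSO neighbours that WX-02-23 did not keep had a median DMSO score of 167, with a range of 103 to 622, and the 4 that it kept had a median of 398, with a range of 314 to 933. Besides the peak at 622, one of those not kept scored above 300 with DMSO: the site from 101712713 to 101713525, 14.0 kb from the founding peak, at 327 with DMSO, 163 with siControl and 212 with PladB. It was missing with WX-02-43 too. The nearest site on the higher side, 3.26 kb away from 101729706 to 101730980, was weak, at 103 with DMSO and 149.7 with siControl. Sites 10.2, 105 and 142 kb away were called with DMSO, siControl and PladB and in no other list. A further 5 sites lacked a parental DMSO peak and scored 182 or less. One, from 101894755 to 101895341, was called in engineered lists alone and is described with them. Of the other 4, 1 was called with siControl, 1 with PladB, 1 with both and 1, 6.44 kb from the founding peak, in uninduced C258A cells (104).

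In WT cells with doxycycline, WX-02-23 kept 3 of 5 neighbouring DMSO peaks at TGFBR2 (Wilson 95% interval 23.1 to 88.2%), 2 of 4 at CDH11 (15.0 to 85.0%) and 1 of 4 at TBC1D8 (4.56 to 69.9%), against 60.7% over the whole WT list. The interval of each locus includes the share of the whole list. The peak kept at TBC1D8, from 101894755 to 101895341, scored 165 with DMSO and 100.2 with WX-02-23 and was in no parental list. Of the 7 WT peaks with WX-02-23 in the windows, 1 had no WT DMSO peak, the TGFBR2 site with a score of 99.2, against 24.6% over the whole list.

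In C258A cells the windows held few DMSO peaks beside the founding ones: 1 at TGFBR2, kept with WX-02-23, 1 at CDH11, not kept, and 0 at TBC1D8. Over the whole C258A list 90.8% were kept. Of the 10 C258A peaks with WX-02-23 in the windows, 6 had no C258A DMSO peak, against 41.5% of the whole list. The rule placed the founding peak of each window among these 10, and each founding peak also had a C258A DMSO peak. The share in the windows therefore depends in part on the rule. The 6 were the TGFBR2 site at 175, the CDH11 sites at 101 and 131, and the TBC1D8 sites at 129, 93.0 and 121. Of these, 5 were also peaks of the WT list with doxycycline and DMSO. The other, at TBC1D8 and 3.78 kb from the founding peak, was called in parental cells with DMSO and in both uninduced lists.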

How the data were processed

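FOXA1 ChIP-seq was measured in 12 libraries, each with its own deposited peak list; 3 input samples were not analysed here. Per the submitters' processing notes, bcl2fastq and Bowtie2 were used with build hg19. Peak names begin with MACS; the peak caller's version, threshold and control are not given in the sources used here. Each list is a BED file with 5 columns, and the last holds a score that the authors deposited, used here as a value within its list. Starts were read as counted from 0 and are printed counted from 1.

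An overlap of at least 1 bp made peaks shared. The overlap code was checked on simulated lists and against bedtools 2.31.1. Shares carry Wilson 95% intervals (scipy 1.17.1), and a count of 0 allows up to 3 counts; both cover counting error only. Samples were grouped by title, 1 library per group, so no test between conditions was made. Alternatives were a reciprocal overlap of 50%, a gap of 500 bp, lists reduced to the shortest length, control peaks of the upper 50% by score, and neighbours within 100 kb.

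The members and lists were chosen with earlier results of these data known. Sites given with their values in the lists that called them were the founding peaks, the nearest site on each side, the 3 strongest DMSO neighbours per window, sites called with DMSO, WX-02-43, PladB and siControl but not with WX-02-23, and sites called with WX-02-23 but not in the DMSO list of the same line. No genome of build hg19 was used here, so no peak sequence, motif or gene annotation is given.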

Additional observations from a re-analysis of the deposited data

Results flagged for a closer look

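At each of the 3 loci, WT and C258A cells differed in the direction in which the number of listed peaks changed. With WX-02-23 in place of DMSO, it changed by -2 in WT and by 1 in C258A cells at TGFBR2, by -3 and 1 at CDH11, and by -4 and 3 at TBC1D8. Each value comes from 1 library per condition, and the difference between the lines was not tested. The whole lists moved the same ways, WT cells from 31735 to 25849 peaks and C258A cells from 13299 to 20609, and the part of list length in the counts at these loci was not tested. The rule fixed the founding peak of each locus as absent from the WT list with WX-02-23 and present in the C258A one. It did not use the DMSO lists of these lines, both of which called each founding peak.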

How the results depend on the processing

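For 21 results, 64 alternative values were computed; 57 of them lay inside the Wilson interval of the reported share (for counts, within a factor of 1.5), and 7 did not. The shares rest on 1 to 10 peaks each, so their intervals are wide and the tally is a weak check of stability. A gap of 500 bp and neighbours within 100 kb moved none of the values computed with them. A reciprocal overlap of 50% lowered the number of lists that called the TGFBR2 founding peak from 9 to 5. At CDH11 and TBC1D8 it lowered that number from 9 to 6, which lies at the limit of the factor of 1.5 and was counted as unmoved. With control peaks of the upper 50% by score, 1 DMSO neighbour was left at TGFBR2, kept at 100.0% with siControl and PladB and at 0.0% with WX-02-43, and 6 were left at TBC1D8, kept at 100.0% with PladB. Lists reduced to 8575 peaks left 3 DMSO neighbours at TBC1D8, kept at 66.7% with siControl and at 0.0% with WX-02-23, and gave no value for parental neighbours at TGFBR2, for WT neighbours at CDH11 and TBC1D8 or for the C258A neighbour at CDH11, where none was left. These settings leave fewer peaks by construction. Parental WX-02-23 kept no TGFBR2 neighbour under any setting that gave a value. Of these settings, only the gap of 500 bp could have raised a count of 0. The others took a part of the same peaks or a stricter overlap, so their value was fixed in advance and is no check. No paired analysis was possible because each group has 1 library and no result comes from a test; for the same reason no replicate could be left out. The unknown depth limits every statement on an absent peak.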
